A study of Homo sapiens with 6 samples.

Results

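The genes described here are the YAP/TAZ-TEAD transcription factors YAP1, WWTR1, TEAD1 and TEAD4 and their target genes CTGF, CYR61, ANKRD1, AMOTL1, AMOTL2 and LATS2. They were found by symbol, and all 10 were present among the 23228 gene symbols of the count tables, where CTGF and CYR61 stand under these older names of CCN2 and CCN1. The genes were selected on their differences between these same 6 libraries, with both movers and genes that differed little taken in. Their differences between groups are therefore given as a description, also where they are counted past a threshold, and p-values are printed only for genes outside the 10. Apart from PELP1, those genes come from lists that were also written with earlier results of these data known. Many were named because their p-values in this contrast were the lowest of their list. Their p-values are thus a description too, and no independent evidence.

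The libraries are RNA-seq of MDA-MB-231, a human cell line established from a triple negative breast cancer (TNBC), 3 of control and 3 of PELP1-KD cells. Control cells stably carried a non-targeted shRNA and PELP1-KD cells an shRNA against PELP1, a nuclear receptor coregulator. Both were delivered by lentivirus and selected with puromycin, which the control cells share. A single shRNA sequence against PELP1 was used, and the labels do not say that the replicates came from separately selected cultures, so p-values measure the spread between these libraries only, which may be technical.

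In the Hippo pathway, the kinases STK3 and STK4 with the scaffold SAV1 activate LATS1 and LATS2, which work with MOB1 adaptors and phosphorylate the coactivators YAP1 and TAZ, the product of WWTR1. Phosphorylated YAP1 and TAZ are held in the cytoplasm or degraded. Unphosphorylated YAP1 and TAZ enter the nucleus and act through TEAD proteins, which bind the DNA word GGAATG, known as the MCAT element when read as CATTCC. CTGF, CYR61 and ANKRD1 are the genes most used as a readout of this activity. LATS2, AMOTL1 and AMOTL2 are targets whose products restrain YAP1 and TAZ. Counts of mRNA do not measure phosphorylation, location or protein.

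The TEAD word is shown here because it is the sequence that TEAD proteins bind. Genes such as CTGF and ANKRD1 are known as targets through such sites in their promoters, so the presence of the word is a description and not an independent finding. RefSeq promoter windows on GRCh38.p14, which run from 250 bases before to 50 bases after a gene's start, were given for 7 of the 10 genes, and those of TEAD1, TEAD4 and CYR61 were not analysed here. GGAATG was searched on both strands and was found in 5 of their 9 windows, each of a different gene, and in 14.0% of all 35116 windows. The windows of WWTR1 and AMOTL1 did not hold these letters. Capitals mark the word, and each sequence is written 5′ to 3′ on the gene's own strand. The CTGF window held 3 copies, 169, 104 and 95 bases upstream of the start, of which the last 2 lie close together.
CTGF, chr6:131951526-131951551, minus strand: ttcagacggaGGAATGctgagtgtca
CTGF, chr6:131951455-131951483, minus strand: gtggggaGGAATGcgaGGAATGtccctgt
ANKRD1, chr10:90921292-90921317, minus strand: caccaccaaaGGAATGgccctctcac
ANKRD1, chr10:90921200-90921225, minus strand: cactgagtctGGAATGaaaattcacc
YAP1, chr11:102110275-102110300, plus strand: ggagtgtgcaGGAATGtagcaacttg
AMOTL2, chr3:134374501-134374526, minus strand: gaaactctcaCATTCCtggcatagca
LATS2, chr13:21061562-21061587, minus strand: tgacgcccgtGGAATGccaacaatgt
The ANKRD1 words begin 220 and 128 bases upstream of the start and the YAP1 word 162 bases upstream. The AMOTL2 word lies 69 bases upstream of a start in 1 of its 2 windows, and the LATS2 word 10 bases downstream of the start. These starts are those of RefSeq, and the gene coordinates given below are those of GENCODE, which differ. By the GENCODE coordinates, the AMOTL2 word and the ANKRD1 word at 128 bases lie inside the gene. The LATS2 word lies outside it. The longer word CATTCCA, which contains the 6-letter word and was also searched on both strands, was found in 4.18% of all windows and at 1 site each in ANKRD1 and LATS2. A match of letters is a description and not a measured binding site.

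The libraries held between 17304864 and 23132102 reads counted on genes. Between 41.0% and 41.4% of each library's total count stood in lines that name no gene. Counts were scaled to CPM, the usual scaling of a count to its library size, with library sizes corrected by TMM, a method that removes differences in composition between libraries. A count of 3, taken as the floor of detection, stood for 0.127 to 0.177 CPM, and such floors cover counting error only. Each of the 10 genes had between 565 and 60277 reads in each library, so none was near this floor. PELP1 itself had 57.2, 56.1 and 60.2 CPM in control replicates 1, 2 and 3 and 28.6, 29.9 and 30.3 CPM in PELP1-KD replicates 1, 2 and 3, a log2 fold change (log2FC) of -0.97 (standard error, SE, 0.055). By the quasi-likelihood test of edgeR, its adjusted p was 1.48e-11. Among markers of the cell line, ESR1 and PGR had at most 3 counts in any library and CDH1 had 8 counts over all 6, while ERBB2 lay between 109 and 128 CPM and was not absent. Of the 10 markers listed as low or absent, 6 were above 1 CPM in every library. Besides ERBB2 these were CLDN4 (83.9 to 95.8 CPM), CLDN7 (15.3 to 17.8), EPCAM (8.62 to 11.2), GATA3 (6.42 to 8.11) and CLDN3 (1.71 to 3.38). The 4 markers expected to be high (VIM, CD44, CAV1 and EGFR) were each above 100 CPM in every library, and their summed level was between 4188 and 4310 CPM in the controls and between 3421 and 3437 CPM in PELP1-KD cells. The part of this lower sum in the results was not tested. The 8 markers of immune, endothelial and muscle cells were each below 1 CPM in every library, with PTPRC and MS4A1 at 0, and summed to 0.704 to 1.24 CPM in controls and 0.923 to 1.61 CPM in PELP1-KD cells.

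In PELP1-KD cells, TEAD1, WWTR1 and YAP1 were below the controls and the readout genes CTGF, CYR61 and ANKRD1 above them. The levels of TEAD1, WWTR1 and YAP1 were lower by 33.4%, 22.9% and 12%. ANKRD1 was 2.00-fold higher, and CYR61 and CTGF were higher by 45.9% and 43.0%. TEAD4 and the restraining targets AMOTL1, AMOTL2 and LATS2 differed by at most 6.97%. At an adjusted p below 0.05, 3 of the 10 were lower and 3 were higher, where 46.9% of the 12796 tested genes passed in either direction, 24.2% lower and 22.7% higher. Nothing is read from these counts, since the genes were chosen with this contrast known. With a log2FC beyond 1 as well, 1 of the 10 passed, ANKRD1, which was higher, against 3.24% of all tested genes in either direction and 1.9% higher. Its log2FC of 1.0002 lay at the cut, and it fell below 1 under several of the alternatives given below. In 8 of the 10 the control and PELP1-KD libraries did not overlap, against 55% of all tested genes.

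**Figure D1:**
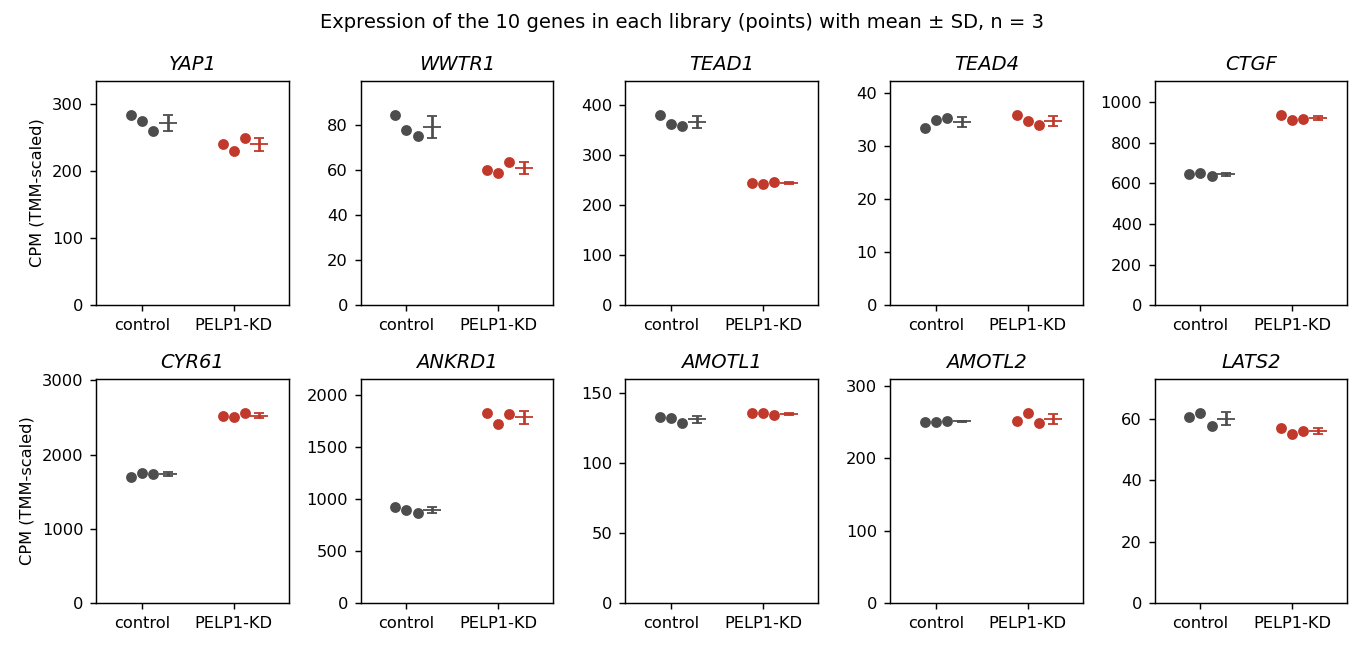
Expression of each of the 10 genes in CPM on a linear axis from 0. Points are the 3 control (grey) and 3 PELP1-KD (red) libraries, and the bar beside them is the mean with its SD. TEAD1 stood between 358 and 379 CPM in controls and 243 and 246 CPM in PELP1-KD cells, while CTGF, CYR61 and ANKRD1 were higher in every PELP1-KD library and TEAD4 and AMOTL2 overlapped.

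TEAD1 (chr11:12674591-12944483 on GRCh38, plus strand) encodes a DNA-binding TEAD factor. Its expression was 379, 361 and 358 CPM in control replicates 1, 2 and 3 and 243, 243 and 246 CPM in PELP1-KD replicates 1, 2 and 3. Every PELP1-KD library was below every control library, and the PELP1-KD libraries lay close together. The means were 366 CPM ± 11.5 (SD, n = 3) and 244 CPM ± 1.64 (SD, n = 3), a log2FC of -0.59 (SE 0.032).

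TEAD4 (chr12:2959330-3040673, plus strand), which encodes a further factor of this family, had 33.4, 35.0 and 35.2 CPM in the controls and 35.8, 34.6 and 33.9 CPM in PELP1-KD cells. The groups overlapped, and the log2FC of 0.0083 was smaller than its SE of 0.057. TEAD4 and TEAD1 thus had different values in the same libraries, although both are expressed in this line.

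WWTR1 (chr3:149517235-149736714, minus strand) encodes TAZ. It had 84.6, 77.9 and 75.2 CPM in control replicates 1, 2 and 3 and 60.2, 58.9 and 63.9 CPM in PELP1-KD replicates 1, 2 and 3. The groups did not overlap, with the highest PELP1-KD library below the lowest control. The log2FC was -0.37 (SE 0.052).

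YAP1 (chr11:102110461-102233423, plus strand) encodes the coactivator YAP. Its 284, 275 and 260.1 CPM in the controls stood against 241, 229.7 and 249 CPM in PELP1-KD cells. The groups did not overlap, but the lowest control and the highest PELP1-KD library were close. The log2FC was -0.18 (SE 0.038). The summed level of YAP1 and WWTR1 per kilobase of exon was 52.7 RPKM ± 2.43 (SD, n = 3) in controls and 45.4 RPKM ± 1.86 (SD, n = 3) in PELP1-KD cells, and YAP1 made up 82.1% and 84.0% of it.

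ANKRD1 (chr10:90912096-90921276, minus strand) encodes an ankyrin-repeat protein known from muscle and from cells with active YAP. It had 918, 889 and 868 CPM in the controls and 1826, 1715 and 1812 CPM in PELP1-KD cells. All PELP1-KD libraries were far above all control libraries. The means were 892 CPM ± 25.3 (SD, n = 3) and 1784 CPM ± 60.6 (SD, n = 3), a log2FC of 1.0 (SE 0.029).

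CYR61 (chr1:85580761-85583962, plus strand) and CTGF (chr6:131948176-131951373, minus strand) encode secreted matricellular proteins of the CCN family. CYR61 had 1701, 1751 and 1742 CPM in the controls and 2517, 2501 and 2561 CPM in PELP1-KD cells. CTGF had 646, 650.3 and 635 CPM in the controls and 934, 911 and 917 CPM in PELP1-KD cells. Neither gene's groups overlapped. The log2FC was 0.55 (SE 0.023) for CYR61 and 0.52 (SE 0.026) for CTGF, so the difference between these genes was close to their errors, while ANKRD1 stood above both. Of the summed RPKM of the 6 CCN genes, CTGF made up 28% ± 0.4 (SD, n = 3) in controls and 27.6% ± 0.363 (SD, n = 3) in PELP1-KD cells.

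LATS2 (chr13:20973032-21061547, minus strand), the kinase that phosphorylates YAP1 and TAZ and is itself a target, had 60.7, 61.9 and 57.7 CPM in the controls and 56.8, 55.1 and 56.0 CPM in PELP1-KD cells. The groups did not overlap, by less than 1 CPM, and the log2FC was -0.10 (SE 0.049), which did not pass.

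AMOTL1 (chr11:94706431-94876753, plus strand) and AMOTL2 (chr3:134355874-134375479, minus strand) encode angiomotin-like proteins, which hold YAP1 at cell junctions. AMOTL1 had 133, 133 and 129 CPM in the controls and 136, 136 and 135 CPM in PELP1-KD cells, with a log2FC of 0.04 (SE 0.037). AMOTL2 had 251, 251 and 252 CPM in the controls and 252, 263 and 249.7 CPM in PELP1-KD cells, with a log2FC of 0.02 (SE 0.032). AMOTL1 had groups that lay just apart and AMOTL2 had groups that overlapped. Neither passed in the main fit, which does not show that they were the same.

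**Figure D2:**
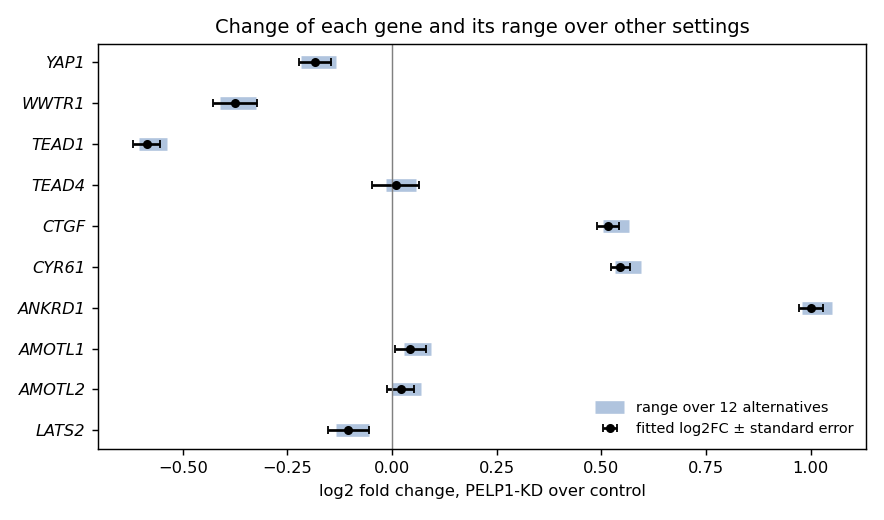
Log2 fold change of each of the 10 genes, PELP1-KD over control, as a point with its standard error. The pale bar is the range over 12 other ways of scaling, filtering, fitting or leaving out a library. TEAD1, WWTR1 and YAP1 stayed below 0 and CTGF, CYR61 and ANKRD1 above 0, while TEAD4 and AMOTL2 crossed it.

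Per kilobase of exon, the order of levels in control cells was CYR61 at 705 RPKM, ANKRD1 at 451 RPKM, CTGF at 275 RPKM, YAP1 at 43.3 RPKM, AMOTL2 at 42.0 RPKM, TEAD1 at 35.6 RPKM, TEAD4 at 15.2 RPKM, AMOTL1 at 13.1 RPKM, LATS2 at 10.8 RPKM and WWTR1 at 9.42 RPKM. The control libraries of YAP1 and AMOTL2 overlapped, and all other neighbours in this order were apart in the controls. In PELP1-KD cells the order was the same but for YAP1, at 38.1 RPKM, which stood below AMOTL2, at 42.6 RPKM, with no overlap. The readout genes thus stood far above the factors and the restraining targets in both groups. RPKM was computed over the union of GENCODE exons, which understates genes whose long exons are little used.

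YAP1, CTGF, AMOTL1 and WWTR1 overlap an exon of an antisense gene, and whether the authors counted by strand is not given in the sources used here. The partners of YAP1, CTGF and AMOTL1 were not found by name among the counted genes, so their reads cannot be told apart from those of the 3 genes. The partner of WWTR1, WWTR1-AS1, was counted as a gene of its own and had 15 reads over all 6 libraries. How reads of the stretch it shares with WWTR1 were assigned is not given. AMOTL2 overlaps a pseudogene of a ribosomal protein on its own strand.

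TEAD2 and TEAD3 rose, whereas TEAD1 was lower and TEAD4 overlapped between the groups. TEAD2 had 22.9, 25.0 and 25.1 CPM in the controls and 37.1, 39.9 and 40.5 CPM in PELP1-KD cells, and rose by a log2FC of 0.69 (SE 0.063, adjusted p 1.87e-08). TEAD3 had 65.5, 64.9 and 66.4 CPM in the controls and 85.1, 88.7 and 82.4 CPM in PELP1-KD cells, and rose by a log2FC of 0.38 (SE 0.046, adjusted p 9.22e-07). In both genes every PELP1-KD library was above every control. Per kilobase of exon, TEAD1 made up 44.2% ± 1.27 (SD, n = 3) of the summed level of the 4 TEAD genes in controls and 29.6% ± 0.546 (SD, n = 3) in PELP1-KD cells. The share of TEAD2 was 10.1% in controls and 16.4% in PELP1-KD cells, that of TEAD3 26.7% and 34.9%, and that of TEAD4 18.9% and 19.1%. The sum was 80.5 RPKM ± 0.301 (SD, n = 3) in controls and 80.2 RPKM ± 1.02 (SD, n = 3) in PELP1-KD cells. The shares and the likeness of these sums rest on the gene lengths, since the plain sum of CPM was 491 ± 9.19 (SD, n = 3) and 403 ± 2.36 (SD, n = 3). With the length of the longest transcript in place of the exon union, the sums were 95.6 and 94.0 RPKM and did not overlap. Both of these scales were chosen after the data were seen.

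**Figure D3:**
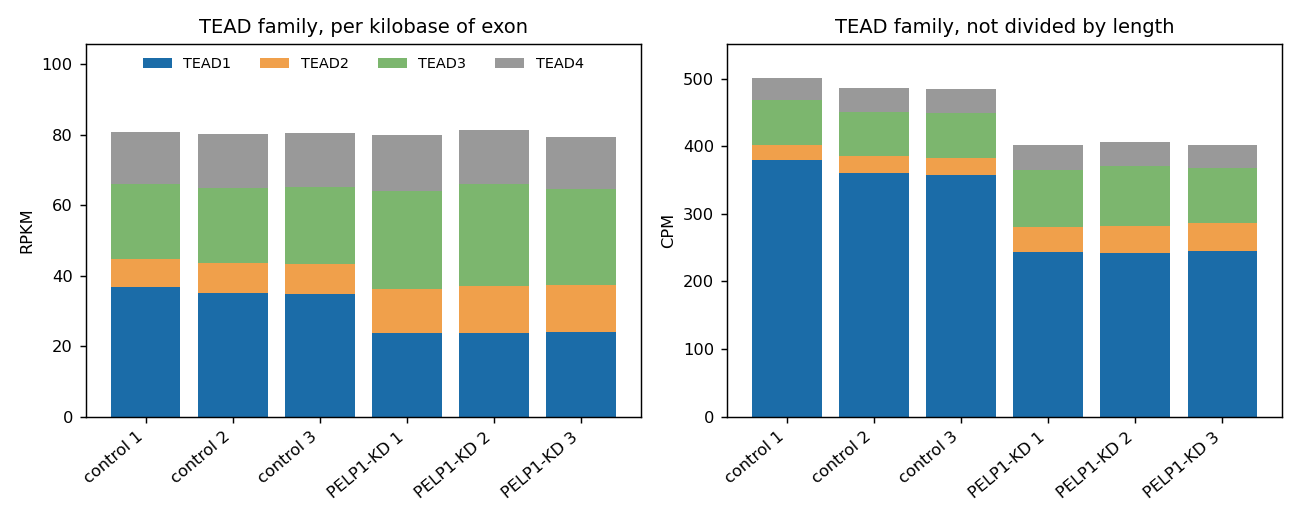
Stacked bars of the 4 TEAD genes in each library, in RPKM (left) and in CPM (right), both from 0. TEAD1 (blue) was smaller and TEAD2 (orange) and TEAD3 (green) were larger in every PELP1-KD library. The bars were of like height in RPKM, with means of 80.5 and 80.2, but not in CPM, with means of 491 and 403.

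Of the remaining relatives of the 10 genes, some were expressed and others were at or near 0. Of the 10 paralogs listed, 6 were tested, of which 2 rose (TEAD2 and TEAD3) and 2 fell, where 46.9% of all tested genes passed. LATS1, the kinase paired with LATS2, fell by a log2FC of -0.33 (SE 0.067, adjusted p 4.26e-04), from 26.9 CPM ± 1.37 (SD, n = 3) in controls to 21.4 CPM ± 0.679 (SD, n = 3). NOV, a CCN family gene, fell from 7.19 CPM ± 1.38 (SD, n = 3) in controls to 3.86 CPM ± 0.168 (SD, n = 3), with a log2FC of -0.89 (SE 0.14, adjusted p 2.8e-05). AMOT, the founding angiomotin, had at most 2 reads in any library, below the floor, so AMOTL1 and AMOTL2 were the angiomotin genes detected. WISP1 and WISP3, of the CCN family, were at 0 in all libraries. Among the VGLL cofactors, which compete with YAP1 and TAZ for TEAD, VGLL1 and VGLL2 were at 0. VGLL3 had 12.3, 11.3 and 12.4 CPM in the controls and 20.5, 17.3 and 18.3 CPM in PELP1-KD cells, and rose by a log2FC of 0.64 (SE 0.086, adjusted p 3.86e-06). VGLL4 had 29.2 CPM in controls and 27.8 CPM in PELP1-KD cells and did not pass (adjusted p 0.349).

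Apart from LATS1, described above, the Hippo kinases and adaptors differed little between the groups. Of the 7 tested core genes, 3 were called lower, LATS1, STK4 and MOBKL1A (an older name of MOB1B), and 4 did not pass, where 24.2% of all tested genes were lower and 22.7% higher. Their median log2FC was -0.08, beside 0.0014 over all genes tested. STK4 had a log2FC of -0.12 (SE 0.043, adjusted p 0.0239) and MOBKL1A of -0.16 (SE 0.057, adjusted p 0.028). Without control replicate 1, or without PELP1-KD replicate 2, STK4 and MOBKL1A lost their calls and 1 of the 7 remained. The log2FC of STK4 was then -0.08 and -0.10, and that of MOBKL1A -0.09 and -0.11. STK4 also lost its call without PELP1-KD replicate 3, at a log2FC of -0.11. STK3, SAV1, MOBKL1B and NF2 did not pass, with log2FC between -0.08 and 0.05.

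Of the upstream regulators, 28 of the 32 listed were tested, of which 8 fell, 7 rose and 13 did not pass, with a median log2FC of 0.01. This was near the 46.9% that passed over all tested genes. PTPN14, a phosphatase that binds YAP1 and is also a target, fell by a log2FC of -0.68 (SE 0.036, adjusted p 3.77e-12). SIKE1, of the STRIPAK phosphatase complex, fell by -0.52 on the log2 scale (adjusted p 2.9e-08). MAP4K5 and MAP4K4, kinases that can activate LATS1 and LATS2, fell by a log2FC of -0.42 (adjusted p 3.6e-08) and -0.26 (adjusted p 7.56e-06). Their relatives MINK1 and MAP4K2 rose, with log2FC of 0.33 (adjusted p 1.03e-06) and 0.25 (adjusted p 0.00369). The scaffold WWC2 rose by a log2FC of 0.30 (adjusted p 2.68e-06) and the STRIPAK subunit STRN4 by 0.21 (adjusted p 1.29e-04). With each library scaled by its plain total, 7 were lower and 11 higher.

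**Figure D4:**
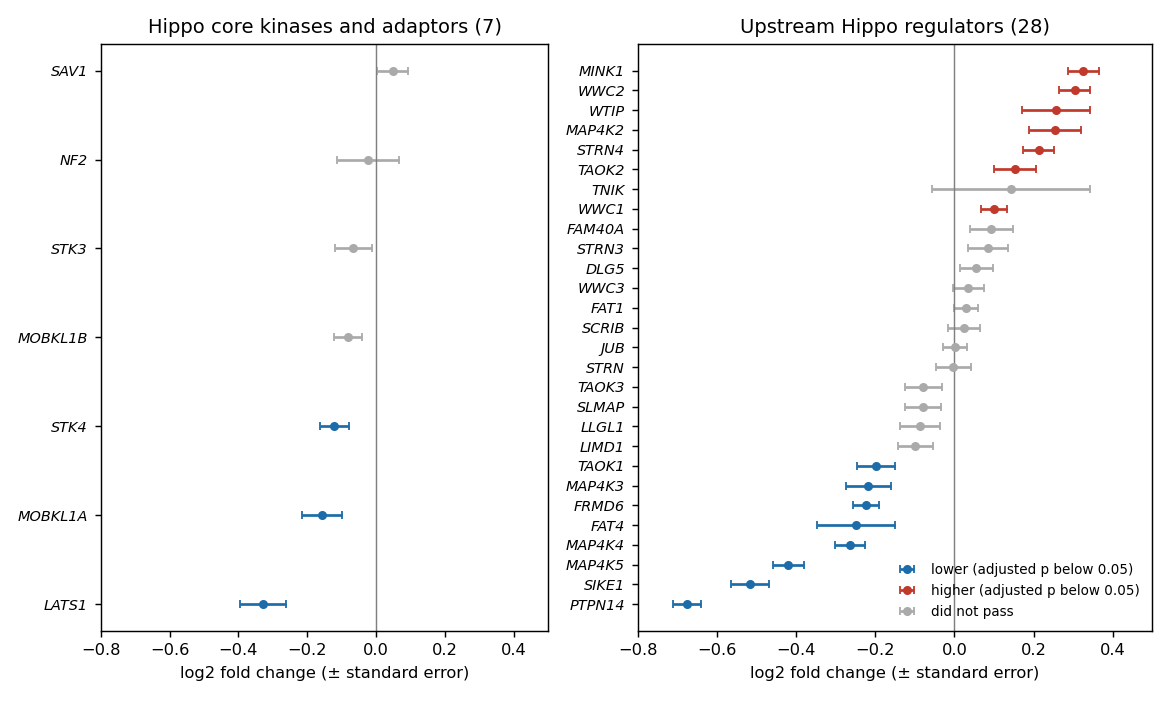
Log2 fold change with its standard error for the 7 tested core genes (left) and the 28 tested upstream regulators (right) of the Hippo pathway. Blue points were lower and red points higher at an adjusted p below 0.05, and grey points did not pass. The core genes lay between -0.33 and 0.05, and PTPN14 was lowest among the regulators at -0.68.

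The other target genes were mixed in direction. A signature of 22 YAP/TAZ target genes, written from general knowledge, holds CTGF, CYR61, ANKRD1, AMOTL2 and LATS2 and 17 other genes. All 17 were tested, of which 9 fell, 4 rose and 4 did not pass, where 24.2% of all tested genes fell and 22.7% rose. The median log2FC of the 17 was -0.10. CRIM1, a membrane protein that binds BMPs, fell by a log2FC of -1.02 (SE 0.032, adjusted p 1.08e-15). IGFBP3, a secreted IGF-binding protein, fell from 83.7 to 28.2 CPM, with a log2FC of -1.57 (SE 0.052, adjusted p 2.56e-15). NT5E, the ectoenzyme CD73, fell from 926 to 519 CPM, with a log2FC of -0.83 (SE 0.03, adjusted p 7.92e-15). PTPN14, described above, was the fourth by p-value. TGFB2, a TGF-beta ligand, rose by a log2FC of 0.38 (SE 0.036, adjusted p 3.77e-08). F3, or tissue factor, rose by a log2FC of 0.13 (adjusted p 0.0015), FOXF2, a forkhead factor, by 0.36 (adjusted p 0.00167), and ARHGEF17 by 0.14 (adjusted p 0.0395). ARHGEF17 lost its call without control replicate 2 or 3 or PELP1-KD replicate 2 or 3, with log2FC of 0.15, 0.12, 0.11 and 0.15, and also under DESeq2 (adjusted p 0.0997) and without a filter on low counts (adjusted p 0.0521). All 22 genes together, which include genes chosen with this contrast known, had 9 lower and 7 higher and a median log2FC of 0.02.

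Further reported targets, also listed from general knowledge, were also mixed. Of 11 listed, 10 were tested, of which 5 fell, 3 rose and 2 did not pass, beside 24.2% and 22.7% of all tested genes that fell and rose. THBS1, the matricellular protein thrombospondin, rose by a log2FC of 1.03 (SE 0.024, adjusted p 1.05e-17). EDN1, the precursor of endothelin, rose from 63.8 to 115 CPM, with a log2FC of 0.85 (SE 0.043, adjusted p 1.78e-12), and DKK1, a secreted Wnt antagonist, by 0.35 (adjusted p 2.87e-09). CCND1, or cyclin D, fell by a log2FC of -0.55 (SE 0.027, adjusted p 1.74e-12), the Notch ligand JAG1 by -0.77 (adjusted p 2.3e-09) and the caveolar protein CAV1 by -0.30 (adjusted p 2.92e-08). WNT5A, a Wnt ligand, fell, with 34 reads over the controls and 4 over PELP1-KD cells, a ratio of 0.105 with an exact interval of 0.027 to 0.294 at 95% (adjusted p 9.7e-05). The interval covers counting error only, and replicates differed by more than that. AREG, a ligand of EGFR, was too low to be tested and has a near-identical copy in older genome builds, so its count is uncertain.

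**Figure D5:**
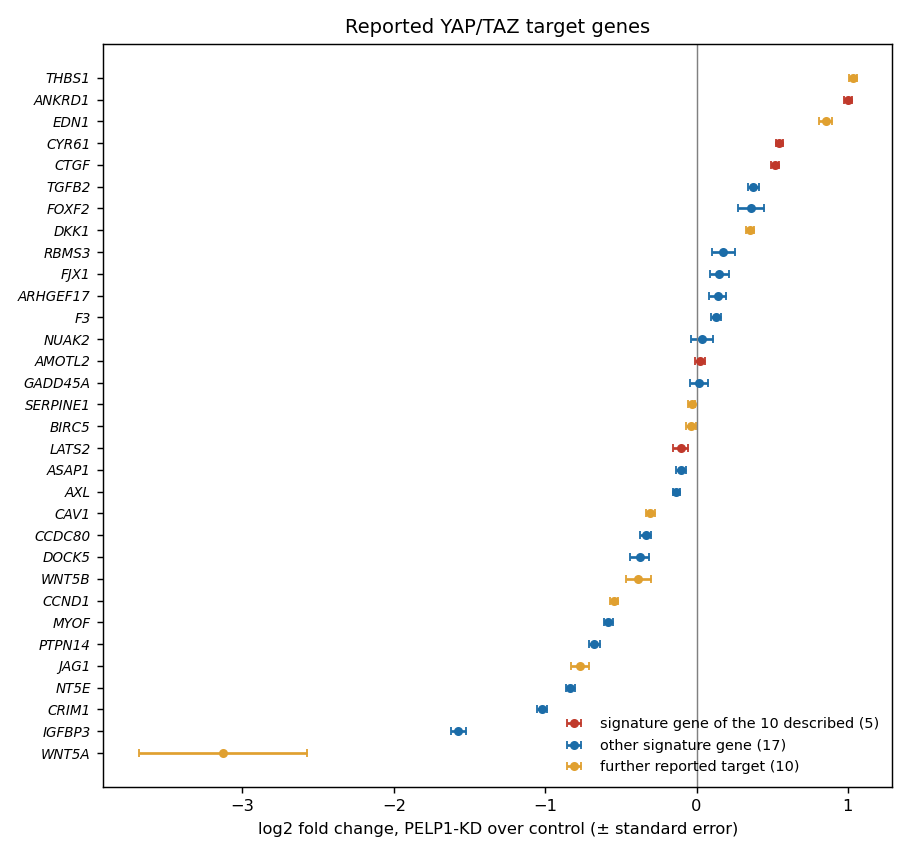
Log2 fold change with its standard error for 32 tested YAP/TAZ target genes, ordered by value. Red points are the 5 signature genes among the 10 described, blue points the 17 other signature genes and amber points the 10 further targets. THBS1, ANKRD1 and EDN1 stood highest at 1.03, 1.0 and 0.85, and IGFBP3 and WNT5A lowest, the latter on 38 reads in all.

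The word was then set beside the calls over all genes. Of 9994 tested genes with a RefSeq window, taking the window listed first, 1064 held GGAATG on either strand. Among these 24.8% were lower and 25.1% higher, with a median log2FC of 0.016. Among the 8930 genes without the word 25.4% were lower and 22.5% higher, with a median log2FC of -0.0044. Of the 231 genes with CATTCCA, 23.8% were lower and 29.9% higher, with a median log2FC of 0.05, against 25.4% lower and 22.6% higher of the 9763 genes without it. These shares were not tested against each other. CTGF and ANKRD1, which hold the word, were higher, whereas YAP1, which also holds it, was lower and LATS2 and AMOTL2 did not pass.

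The genes with the pattern most like the readout genes were sought by Pearson's r of log2 CPM over the 6 libraries. For CTGF they were INHBA, HSF2BP and GEM, for CYR61 they were ZNF542, PYGL and FLJ22447, and for ANKRD1 they were ADAMTS6, C9orf84 and PDE11A. INHBA, which encodes a subunit of activin, had a mean of 29.7 CPM in controls and 93.7 CPM in PELP1-KD cells, with r = 0.9996 to CTGF. With 6 libraries in 2 groups, r mostly reflects the difference between groups, and 1026 genes had r above 0.95 with CTGF.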

How the data were processed

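RNA-seq counts of 3 control and 3 PELP1-KD libraries of MDA-MB-231 cells were used, with groups and replicate numbers from the sample labels. The authors deposited whole-number counts of reads per gene symbol for each library, without normalization. Per the submitters' processing notes, bcl2fastq, TopHat2, SAMtools, HTSeq and build hg19 were used, and their versions, the annotation and any use of strand are not given in the sources used here. The 5 closing lines of each table name no gene and were left out of library sizes. They held 41.0% to 41.4% of the total count, mostly for reads with more than a single alignment (32.5% to 32.9%). Leaving such reads out lowers the counts of near-identical genes. Whether that line counts each read or each of its alignments is not given in the sources used here, so these may not be shares of reads.

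Counts were analysed in R 4.3.3 with edgeR 4.0.16. Genes passing filterByExpr (minimum count 10) were kept, scaled by TMM and tested by the quasi-likelihood test with Benjamini-Hochberg adjustment over 12796 genes. A call is an adjusted p-value below 0.05. The standard error of a log2FC is its size over the root of F. Log2 CPM used a prior count of 2. Lengths and coordinates came from GENCODE 29 on GRCh38, by symbol, since the tables hold no coordinates. Promoters came from RefSeq. In simulated counts, 198 of 200 genes changed by a log2FC of 1 were recovered, and 8 of 12577 unchanged genes were called. The simulation gave all genes the same spread between replicates and changed equal numbers of genes up and down. It therefore checks the code and does not measure false calls or scaling in these data, where far more genes differ. Replicates of a group differed by more than counting noise, at chi-square values of 1.47 to 4.11 for each degree of freedom.

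The genes and lists were chosen with earlier results of these data known, and the lists were written from general knowledge. Named from each list were up to 4 genes in each direction with the lowest p-values, TEAD2, TEAD3, AMOT, LATS1 and VGLL4, list genes at 0, up to 4 neighbours with the largest change, and 3 genes most alike to CTGF, CYR61 and ANKRD1. Alternatives were RLE scaling, library totals, DESeq2 1.42.0, no filter, a minimum of 10 counts in each library, a block for replicate numbers, omission of single replicates and another word. Proteomics was not analysed here.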

Additional observations from a re-analysis of the deposited data

How the results depend on the processing

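Over the alternatives, the log2FC was between -0.60 and -0.54 for TEAD1, -0.41 and -0.33 for WWTR1, -0.22 and -0.13 for YAP1, 0.50 and 0.57 for CTGF, 0.53 and 0.59 for CYR61 and 0.98 and 1.05 for ANKRD1. These genes were selected on this contrast, so the ranges are a description. Library totals alone raised the median log2FC of all genes from 0.0014 to 0.051 and the share of higher calls from 48.3% to 61.2%. Of the 10 genes, 3 were then lower and 4 higher, against 3 and 3 in the main fit. The added higher call was among TEAD4, AMOTL1 and AMOTL2, which did not pass in the main fit. With library totals their log2FC were 0.058, 0.093 and 0.070. With a log2FC beyond 1 as well, 0 of the 10 genes were lower and 1 higher in the main edgeR fit. That gene was ANKRD1, at a log2FC of 1.0002. In other edgeR fits it fell below 1, such as 0.99979 with the replicate block and 0.97941 without control replicate 3. Of the core Hippo genes, 1 was lower with library totals and between 1 and 3 with a replicate left out. With library totals, 11 upstream regulators were higher and the median log2FC of genes with GGAATG was 0.065. For genes with CATTCCA the median log2FC was 0.05002 in the main fit, scaled by TMM. The log2 ratio of the TEAD sums was -0.0055 in RPKM, -0.024 with the longest transcript and -0.28 in CPM. The log2FC of PELP1 stayed between -0.99 and -0.92 over all alternatives. Same-numbered replicates deviated from their group means with correlations of 0.039, 0.065 and -0.078. These values show no clear pairing, but with 3 libraries in each group they do not settle whether the numbers pair the libraries. With the replicate block, 3335 genes were lower and 3140 higher, against 3103 and 2904 without it, and among the 17 signature genes 9 were lower and 6 higher. The cause of these shifts was not tested, apart from the scaling itself. The simulation used a log2FC of 1, so the power for smaller differences, such as those of LATS2 and AMOTL1, was not measured.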

Other observations

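The nearest tested genes on each side of the 10 genes, in RefSeq order of starts, were 20 genes, of which 9 fell, 1 rose and 10 did not pass, where 24.2% of all tested genes fell and 22.7% rose, with a median log2FC of -0.11. ANAPC13, a subunit of the anaphase-promoting complex beside AMOTL2, fell from 72.5 to 43.1 CPM, with a log2FC of -0.75 (SE, the standard error, 0.054, edgeR adjusted p 4.86e-10), while AMOTL2 itself did not pass. TM4SF1, a tetraspanin-like membrane protein beside WWTR1, fell by a log2FC of -0.63 (SE 0.035, adjusted p 9.77e-12), and WWTR1 was lower by -0.37. BIRC3, an inhibitor of apoptosis beside YAP1, fell by a log2FC of -0.61 (SE 0.046, adjusted p 1.08e-09), more than the -0.18 of YAP1, though this difference was not tested. PCGF5, a Polycomb ring finger protein beside ANKRD1, fell by a log2FC of -0.45 (SE 0.05, adjusted p 2.44e-07), while ANKRD1 was higher. The neighbours of CTGF, ENPP1 and MOXD1, named after their values were seen, had log2FC of 0.03 and -0.01 and did not pass.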
